A study of Mus musculus with 9 samples.

Results

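The genes described here are 10 feedback inhibitors of MAP kinase signalling, the dual specificity phosphatase genes Dusp1, Dusp2, Dusp4, Dusp5, Dusp6, Dusp10 and Dusp16 and the Sprouty family genes Spry1, Spry2 and Spred1. They were chosen by symbol from the 16500 genes with deposited expression values, and all 10 were found. Their RNA was measured by paired-end RNA sequencing of primary CD4+ T cells of C57BL/6 mice, transduced with retrovirus. The NFAT2-CARIT group carried a vector for NFAT2-CARIT, the NFAT2-CA group a vector for NFAT2-CA, and the Control group a control vector, with 3 libraries in each group. NFAT2 is the calcium-regulated transcription factor encoded by Nfatc1. As background, the CA form is active without calcium signalling, and the RIT changes weaken its contact with AP-1, the Fos and Jun partner that it meets on many composite DNA sites. All cells, Control included, were transduced and cultured. The promoter of the vectors, the time after transduction and the age of the animals are not stated, and the vectors place an active factor in the cells by overexpression. No label says that the libraries are from separate animals or cultures, and p-values measure the spread between these libraries, which may be technical.

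MAP kinases (ERK, JNK and p38) are switched on by phosphorylation of a threonine and a tyrosine, and dual specificity phosphatases of the MAP kinase phosphatase class remove both phosphates. Sprouty and Spred proteins act further up, between receptors and the kinase cascade, and limit RAS and ERK activation. Many of these genes are themselves transcribed in response to MAP kinase or antigen receptor signalling, so the pathway builds its own brake. In T cells this class of genes is known from studies of activation, tolerance and exhaustion.

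The starts of 4 of these genes are shown because their transcripts gave the main patterns below. Dusp16 and Spry1 were highest with NFAT2-CA, Dusp2 was highest with NFAT2-CARIT, and Dusp6 was highest in Control. Each line holds the 250 bases before the RefSeq start, read 5′ to 3′ on the gene's own strand (RefSeq, GRCm38.p6). Capitals mark GGAAA, the core to which NFAT proteins bind, or its reverse complement TTTCC. The windows are chr6:134792629-134792878 on the minus strand for Dusp16, and on the plus strand chr3:37639697-37639946 for Spry1, chr2:127335909-127336158 for Dusp2 and chr10:99262981-99263230 for Dusp6.
Dusp16: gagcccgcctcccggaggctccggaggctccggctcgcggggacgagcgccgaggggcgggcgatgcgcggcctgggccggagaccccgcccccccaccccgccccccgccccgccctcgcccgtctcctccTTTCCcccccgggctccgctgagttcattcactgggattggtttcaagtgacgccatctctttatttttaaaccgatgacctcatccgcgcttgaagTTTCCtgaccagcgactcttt
Spry1: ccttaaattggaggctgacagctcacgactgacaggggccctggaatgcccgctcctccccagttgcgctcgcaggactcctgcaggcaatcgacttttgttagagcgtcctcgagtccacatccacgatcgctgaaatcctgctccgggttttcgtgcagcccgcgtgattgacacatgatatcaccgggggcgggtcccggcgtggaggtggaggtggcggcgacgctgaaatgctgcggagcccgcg
Dusp2: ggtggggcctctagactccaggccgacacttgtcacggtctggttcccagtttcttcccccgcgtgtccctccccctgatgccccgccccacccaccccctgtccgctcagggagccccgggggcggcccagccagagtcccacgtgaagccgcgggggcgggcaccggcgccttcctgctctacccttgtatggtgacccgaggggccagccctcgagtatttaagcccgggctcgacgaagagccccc
Dusp6: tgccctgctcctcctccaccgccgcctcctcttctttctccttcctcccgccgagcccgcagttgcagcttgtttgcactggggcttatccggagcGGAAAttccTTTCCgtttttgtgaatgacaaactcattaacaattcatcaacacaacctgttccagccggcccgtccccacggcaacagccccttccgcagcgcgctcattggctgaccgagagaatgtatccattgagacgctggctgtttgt

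A window from 250 bases before to 50 bases after the start was found for 9 of the 10 genes, Dusp4 being the exception, and was searched on both strands. GGAAA was in the windows of 6 of these 9 genes, and it was in 61.3% of all 32851 RefSeq promoter windows of the same length. Dusp16, Dusp6 and Spred1 held 2 matches each, and 26.7% of all windows held 2 or more. Spry2 held 3 matches, and 9.42% of all windows held 3 or more. Dusp1 and Dusp5 held 1 each. Dusp2, Dusp10 and Spry1 held none, so genes that rose strongly with NFAT2-CA are found with the letters (Dusp16) and without them (Spry1). The AP-1 letters TGANTCA, present in 7.81% of all windows, were in none of the 9, and the ETS factor letters CCGGAAGT, present in 3.89%, were in none. The cyclic AMP response element TGACGTCA, present in 1.79% of all windows, was in the window of Dusp1 alone, at positions -143 to -136 from the start. None of these matches overlapped another. A match says that the letters are present and is not evidence of binding. RefSeq starts need not equal the ends of the gene spans given below. For Dusp1 and Dusp10 the 250 bases before the RefSeq start lie inside those spans (chr17:26508473-26508722 and chr1:184034131-184034380).

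**Figure D1:**
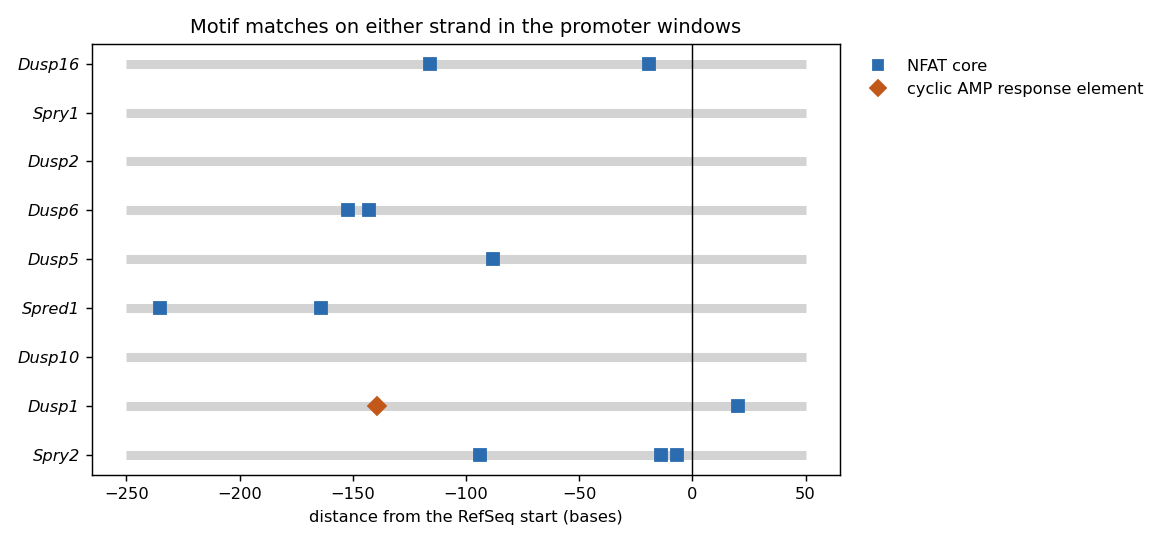
Matches to the NFAT core (GGAAA, squares) and to the cyclic AMP response element (diamond) on either strand in the windows of 9 genes, by distance in bases from the RefSeq start. Dusp16, Dusp6 and Spred1 hold 2 NFAT core matches each, Spry2 holds 3, and Spry1, Dusp2 and Dusp10 hold none.

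Expression is given in the deposited unit, CPM, in which each library's reads over all genes are scaled to sum to 1000000. Estimated depth was 19941900 to 38188900 reads per library, so that 1 CPM rests on 20 to 38 reads. The CD4 T cell markers were present in all libraries: Cd4 averaged 1660.2 ± 45.7 CPM with NFAT2-CARIT and 1619.5 ± 57.7 CPM with NFAT2-CA, against 1571 ± 58.5 CPM in Control (SD, n = 3 each). The 6 listed markers, all found, summed to 4783 to 4905 CPM with NFAT2-CARIT and 5214 to 5588 CPM with NFAT2-CA, against 4296 to 4336 CPM in Control. Among them Cd3e averaged 706 ± 30.9 CPM with NFAT2-CARIT and 949.9 ± 43.1 CPM with NFAT2-CA, against 419.5 ± 15.0 CPM in Control, and Cd5 averaged 369.7 ± 6.47 CPM with NFAT2-CARIT and 332 ± 4.72 CPM with NFAT2-CA, against 518 ± 12.3 CPM in Control. Nfatc1 was 240.5, 245 and 253 CPM with NFAT2-CARIT and 342, 336 and 395 CPM with NFAT2-CA, against 224, 228 and 188 CPM in Control. Its log2 fold change against Control was 0.74 ± 0.08 with NFAT2-CA (SE, limma adjusted p = 3.6e-07) and 0.21 ± 0.08 with NFAT2-CARIT (adjusted p = 0.023), and the call with NFAT2-CARIT was lost without NFAT2-CARIT replicate 2 (adjusted p = 0.055), NFAT2-CARIT replicate 3 (0.070) or Control replicate 3 (0.10), with a range of 0.0024 to 0.19 over all alternatives. Whether reads of the vector insert count towards Nfatc1 is not stated. Summed markers of B cells (2 of 5 genes listed, 0.733 to 1.60 CPM with NFAT2-CARIT and 0.628 to 1.23 CPM with NFAT2-CA, against 2.50 to 3.46 CPM in Control), of myeloid and dendritic cells (3 of 7 listed, 2.30 to 3.38 CPM with NFAT2-CARIT and 1.52 to 1.93 CPM with NFAT2-CA, against 6.83 to 9.39 CPM in Control) and of NK cells (2 of 4 listed, 1.59 to 2.30 CPM with NFAT2-CARIT and 2.56 to 3.12 CPM with NFAT2-CA, against 8.33 to 10.3 CPM in Control) were low and highest in Control. In Control the myeloid and dendritic cell sum was nearly all Itgam (7.98 ± 1.24 CPM, against 1.34 ± 0.397 CPM with NFAT2-CARIT and 0.701 ± 0.0850 CPM with NFAT2-CA). Cd14 went the other way, at 0.563 CPM with NFAT2-CARIT, 0.961 CPM with NFAT2-CA and 0.0283 CPM in Control. Itgax was highest with NFAT2-CARIT (1.08 CPM, against 0.0651 CPM with NFAT2-CA and 0.0598 CPM in Control). The B cell genes Ms4a1 and Pax5, the myeloid and dendritic cell genes Lyz2, Csf1r, Adgre1 and Flt3 and the NK cell genes Ncr1 and Klrb1c have no value here. The CD8 T cell markers (2 of 2 listed) summed to 22.6 to 24.0 CPM with NFAT2-CARIT and 28.4 to 30.8 CPM with NFAT2-CA, against 12.5 to 13.7 CPM in Control. Nearly all of that was Cd8b1, since Cd8a stayed at or below 2.00 CPM. Erythroid (1 of 4 listed) and platelet (1 of 4 listed) markers stayed at or below 0.528 CPM and 2.86 CPM. The part of these other cells in the results was not tested.

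With either NFAT2 vector, Dusp16, Spry1, Dusp4 and Dusp2 rose and Dusp6 fell, each by more than 2-fold. In cells with NFAT2-CA the order of the rises was Dusp16 (12.6-fold), Spry1 (8.28-fold), Dusp4 (5.08-fold) and Dusp2 (2.84-fold), and Dusp6 stood at 0.408 times its Control level. With NFAT2-CARIT the rises were 6.42-fold for Dusp16, 4.05-fold for Dusp4, 3.91-fold for Dusp2 and 3.64-fold for Spry1, and Dusp6 stood at 0.434 times its Control level. Between the vectors, Dusp16, Spry1 and Dusp4 were lower, and Dusp2 and Dusp5 higher, with NFAT2-CARIT than with NFAT2-CA. These are levels of RNA in a bulk sample, in which fewer cells that use a gene and less RNA per cell cannot be told apart. Both comparisons with Control use the same 3 Control libraries, so their values are set side by side and are not independent of each other.

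Of the 10 genes, 9 were tested, all of which reached 1 CPM in all 9 libraries. Spry2 was below 1 CPM in every library and was not tested. A gene was called when its adjusted p was under 0.05 in limma, over all 13090 genes tested. Against Control, NFAT2-CA changed 6 of the 9, beside 65.5% of all tested genes, with 5 higher (29.0% of all) and 1 lower (36.5% of all), and 5 of the 9 were called at 2-fold or more (13.8% of all). NFAT2-CARIT changed 6 of the 9 against Control, beside 70.3% of all tested genes, with 5 higher (29.2%) and 1 lower (41.1%), and 5 were called at 2-fold or more (17.2%). Between the vectors, 5 of the 9 were called, beside 28.6% of all tested genes, with 2 higher with NFAT2-CARIT (11.9%), 3 lower (16.7%) and 1 at 2-fold or more, Spry1 (1.68%). Against Control, 6 of 9 is near the share of all genes called, so the number of calls there is no result about these genes. The median log2 fold change of the 9 was 0.36 for NFAT2-CA and 0.21 for NFAT2-CARIT against Control, and 0.09 for NFAT2-CARIT against NFAT2-CA, beside -0.06, -0.09 and -0.03 over all genes tested. The authors' deposited table, made with DESeq2, called fewer genes at an FDR under 0.05: 21.8% of 16500 for NFAT2-CA against Control, 25.6% for NFAT2-CARIT against Control and 2.84% between the vectors. Each vector against Control had 5 of the 10 called in the authors' deposited table (Dusp16, Spry1, Dusp4, Dusp2 and Dusp6 in both cases), and the vectors against each other had 3 of the 10 (Dusp16, Spry1 and Dusp2).

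**Figure D2:**
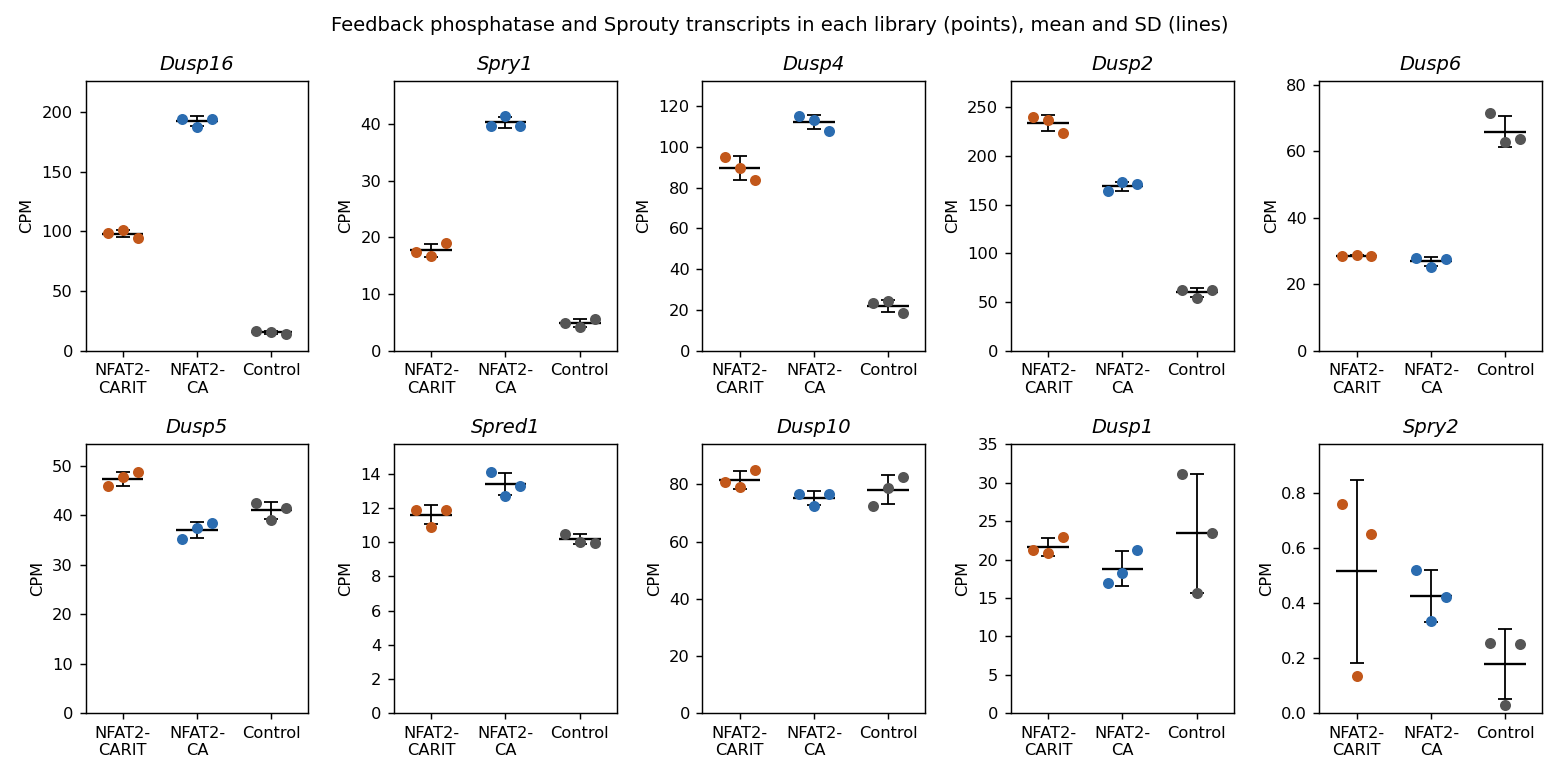
CPM of the 10 genes in each of the 9 libraries (points), with the group mean and SD (lines), in the order NFAT2-CARIT, NFAT2-CA and Control. Dusp16 stands at 187 to 194 CPM with NFAT2-CA, against 13.7 to 16.1 CPM in Control, and Dusp6 is highest in Control at 62.8 to 71.4 CPM.

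**Figure D3:**
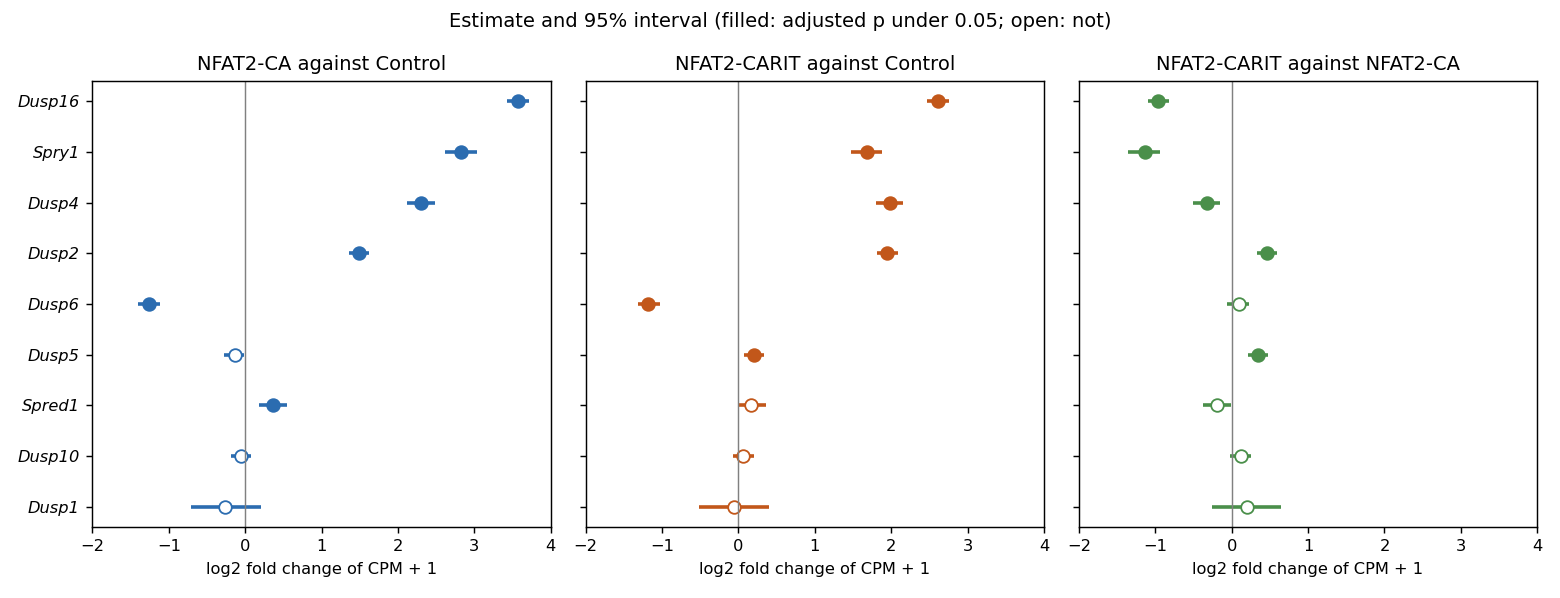
Log2 fold change of CPM + 1 (x axis) with its 95% confidence interval for the 9 tested genes, in 3 panels (NFAT2-CA against Control, NFAT2-CARIT against Control, vectors against each other), with filled points for adjusted p under 0.05. Dusp16 lies at 3.57 and 2.61 in the panels against Control and at -0.96 between the vectors.

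Among the phosphatases that work in the nucleus, Dusp2 and Dusp4 rose with both vectors, Dusp5 rose 1.16-fold with NFAT2-CARIT, and Dusp1 did not pass the test. Dusp2 (chromosome 2, 127336159 to 127338376, plus strand, GRCm38) encodes a phosphatase of ERK and p38 found mainly in blood cells and known as an early gene of T cell activation. It was at 240.2, 237 and 224 CPM with NFAT2-CARIT and 164, 173 and 171 CPM with NFAT2-CA, against 62.7, 54.3 and 62.3 CPM in Control. The 3 groups did not overlap, and it was the only gene of the set called higher with each vector against Control and higher again with NFAT2-CARIT than with NFAT2-CA. Its log2 fold change was 1.95 ± 0.06 for NFAT2-CARIT against Control (SE, limma adjusted p = 1.4e-13), 1.49 ± 0.06 for NFAT2-CA against Control (adjusted p = 4.7e-12) and 0.46 ± 0.06 for NFAT2-CARIT against NFAT2-CA (adjusted p = 5.1e-05). For the difference between the vectors the authors' deposited table gives 0.47 (FDR 0.0065).

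Dusp4 (chromosome 8, 34807297 to 34819894, plus strand) encodes an inducible nuclear phosphatase of ERK, JNK and p38. Its transcript was at 95.2, 89.8 and 83.7 CPM with NFAT2-CARIT and 115, 113 and 108 CPM with NFAT2-CA, against 23.4, 24.2 and 18.7 CPM in Control. Every library of both NFAT2 groups lay above every Control library, and the NFAT2-CARIT libraries lay below the NFAT2-CA libraries. The log2 fold change was 1.98 ± 0.08 for NFAT2-CARIT (limma adjusted p = 4.8e-12) and 2.30 ± 0.08 for NFAT2-CA (adjusted p = 8.4e-13) against Control. Between the vectors the difference was small, -0.32 ± 0.08 (adjusted p = 0.0087), and the authors' deposited table, with the same -0.32, did not call it (FDR 0.72).

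Dusp5 (chromosome 19, 53529109 to 53542431, plus strand) encodes a nuclear phosphatase that acts on ERK. It was at 45.9, 47.7 and 48.7 CPM with NFAT2-CARIT and 35.3, 37.4 and 38.4 CPM with NFAT2-CA, against 42.5, 39.1 and 41.4 CPM in Control. NFAT2-CARIT libraries were the highest and NFAT2-CA libraries the lowest, with Control between them and no overlap. The rise with NFAT2-CARIT was 0.21 ± 0.06 on the log2 scale (limma adjusted p = 0.0082), and the difference between NFAT2-CARIT and NFAT2-CA was 0.35 ± 0.06 (adjusted p = 6.6e-04). For NFAT2-CA against Control the estimate was -0.14 ± 0.06 (adjusted p = 0.060), which passed the test without NFAT2-CA replicate 3 (-0.17, adjusted p = 0.048) or without Control replicate 2 (-0.17, adjusted p = 0.047), and whose adjusted p reached 0.75 over the alternatives. None of the comparisons of Dusp5 was called in the authors' deposited table (FDR 0.55 for NFAT2-CARIT and 0.75 for NFAT2-CA against Control, 0.82 between the vectors). An annotated antisense gene shares 547 bases, or 22.1%, of the exons of Dusp5, and whether counting used strand is not stated, so its reads cannot be told apart from those of Dusp5.

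Dusp1 (chromosome 17, 26505590 to 26562128, minus strand) encodes the immediate-early phosphatase of p38, JNK and ERK. It was at 21.2, 20.8 and 22.9 CPM with NFAT2-CARIT and 16.9, 18.2 and 21.3 CPM with NFAT2-CA, against 31.1, 15.7 and 23.5 CPM in Control. The Control libraries alone spanned the values of both other groups. The log2 fold change was -0.06 ± 0.20 with NFAT2-CARIT (95% interval -0.51 to 0.40, limma adjusted p = 0.81) and -0.26 ± 0.20 with NFAT2-CA (-0.71 to 0.20, adjusted p = 0.29). A single library decided these values: without Control replicate 2 the estimates were -0.31 (adjusted p = 0.033) with NFAT2-CARIT and -0.51 (adjusted p = 0.0018) with NFAT2-CA, and without Control replicate 1 the estimate for NFAT2-CARIT was 0.17 (adjusted p = 0.32). Over all alternatives the adjusted p ranged from 0.033 to 0.93 with NFAT2-CARIT and from 0.0018 to 0.86 with NFAT2-CA. The same Control libraries differed in other immediate-early genes. Jun was at 184, 61.7 and 117 CPM, Zfp36 at 288, 194 and 236 CPM, and Egr1 at 22.4, 10.4 and 14.2 CPM in Control replicates 1, 2 and 3, so replicate 1 was highest and replicate 2 lowest for each of them and for Dusp1. Their part in the Dusp1 values was not tested.

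Dusp6 was the member that fell. It encodes a cytoplasmic phosphatase selective for ERK, and its transcription is a known readout of ERK activity (chromosome 10, 99263231 to 99267489, plus strand). Its level was 28.6, 28.7 and 28.5 CPM with NFAT2-CARIT and 27.8, 25.3 and 27.5 CPM with NFAT2-CA, against 71.4, 62.8 and 63.6 CPM in Control. Every library of both NFAT2 groups lay below every Control library, and the NFAT2-CARIT libraries lay narrowly above those of NFAT2-CA. The fall was 1.18 ± 0.07 on the log2 scale with NFAT2-CARIT (-1.18, limma adjusted p = 2.3e-10) and 1.26 ± 0.07 with NFAT2-CA (-1.26, adjusted p = 1.1e-10). The vectors differed by 0.09 ± 0.07, with an interval of -0.06 to 0.23 (adjusted p = 0.37), so a difference larger than 0.23 on the log2 scale lies outside the interval.

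Of the phosphatases that act on JNK and p38, Dusp16 had the highest fold change of the 9 tested genes with either vector, and Dusp10 passed the test in no comparison, except with NFAT2-CARIT under another scaling given below. Dusp16 (chromosome 6, 134715468 to 134792625, minus strand) encodes a phosphatase with preference for JNK and p38. Its transcript was at 98.9, 101 and 94.6 CPM with NFAT2-CARIT and 194, 187 and 194 CPM with NFAT2-CA, against 16.1, 16.0 and 13.7 CPM in Control. The groups formed separate steps, with NFAT2-CARIT between NFAT2-CA and Control. The log2 fold change against Control was 2.61 ± 0.07 with NFAT2-CARIT (limma adjusted p = 6.5e-15) and 3.57 ± 0.07 with NFAT2-CA (adjusted p = 2.4e-16). NFAT2-CARIT cells held 0.511 times the NFAT2-CA level, a log2 fold change of -0.96 ± 0.07 (adjusted p = 2.5e-08), and the authors' deposited table gives -0.97 (FDR 2.9e-09).

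Dusp10 (chromosome 1, 184013302 to 184075636, plus strand) encodes another phosphatase of JNK and p38, known in T cells for its effect on activation and cytokine output. It was at 80.7, 79.1 and 85.0 CPM with NFAT2-CARIT and 76.5, 72.3 and 76.7 CPM with NFAT2-CA, against 72.6, 78.9 and 82.7 CPM in Control. Control overlapped both other groups. The log2 fold change was 0.06 ± 0.06 with NFAT2-CARIT (interval -0.07 to 0.20, limma adjusted p = 0.37) and -0.05 ± 0.06 with NFAT2-CA (-0.18 to 0.08, adjusted p = 0.47). With scaling by TMM-type factors the Dusp10 estimate was 0.16 with NFAT2-CARIT (adjusted p = 0.024) and 0.02 with NFAT2-CA (adjusted p = 0.79). Over all alternatives its adjusted p ranged from 0.024 to 0.87 with NFAT2-CARIT and from 0.19 to 0.90 with NFAT2-CA.

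In the Sprouty family, Spry1 rose with both vectors, Spred1 rose slightly with NFAT2-CA, and Spry2 was barely detected. Spry1 (chromosome 3, 37639947 to 37644598, plus strand) encodes an inducible inhibitor of RAS and ERK signalling that has been studied in T cell activation. It was at 17.4, 16.7 and 19.0 CPM with NFAT2-CARIT and 39.7, 41.4 and 39.7 CPM with NFAT2-CA, against 4.93, 4.10 and 5.57 CPM in Control. As with Dusp16, the groups formed 3 separate steps with NFAT2-CARIT in the middle. The log2 fold change was 1.68 ± 0.10 with NFAT2-CARIT (limma adjusted p = 2.0e-10) and 2.82 ± 0.10 with NFAT2-CA (adjusted p = 3.4e-13), both on CPM + 1, which understates the change of a low gene. In NFAT2-CARIT cells the level was 0.439 times that of NFAT2-CA cells, a log2 fold change of -1.14 ± 0.10 (adjusted p = 3.2e-07), with -1.19 (FDR 0.0032) in the authors' deposited table. The gene Gm42922 on the opposite strand shares 710 bases, or 24.4%, of the Spry1 exons. It was listed at 0.264 CPM with NFAT2-CARIT and 0.230 CPM with NFAT2-CA, against 0.294 CPM in Control, and reads of the shared bases cannot be told apart without strand.

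Spred1 (chromosome 2, 117121374 to 117182279, plus strand) encodes the membrane adaptor that brings neurofibromin, a RAS inhibitor, to RAS. It was at 11.9, 10.9 and 11.9 CPM with NFAT2-CARIT and 14.1, 12.7 and 13.3 CPM with NFAT2-CA, against 10.5, 10.0 and 9.96 CPM in Control. The groups did not overlap, and the steps between them were small. The log2 fold change was 0.17 ± 0.09 with NFAT2-CARIT (limma adjusted p = 0.091) and 0.36 ± 0.09 with NFAT2-CA (adjusted p = 0.0017), which the authors' deposited table did not call (0.40, FDR 0.57). The NFAT2-CARIT value passed the test with scaling by TMM-type factors (0.26, adjusted p = 0.014) and with quantile normalization (0.32, adjusted p = 0.0044), and its adjusted p reached 0.83 over the alternatives. Between NFAT2-CARIT and NFAT2-CA the estimate was -0.19 ± 0.09 (adjusted p = 0.12).

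Spry2 (chromosome 14, 105891947 to 105896819, minus strand), the other Sprouty gene of the set, was at 0.759, 0.137 and 0.651 CPM with NFAT2-CARIT and 0.521, 0.335 and 0.422 CPM with NFAT2-CA, against 0.255, 0.0315 and 0.250 CPM in Control. In these libraries 3 reads equal 0.0786 to 0.15 CPM, so these values rest on few reads. The libraries of NFAT2-CA lay above those of Control without overlap, while the Control values overlap those of NFAT2-CARIT. Spry2 was too low for the limma test, and the authors' deposited table called no comparison of Spry2 (FDR 0.68 for NFAT2-CARIT and 0.78 for NFAT2-CA against Control, 1.0 between the vectors).

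The order of the levels among the 10 genes differed between the groups. On a scale of CPM per kb of annotated exon, Dusp2 was first in each group, at 117 ± 4.18 with NFAT2-CARIT, 84.6 ± 2.24 with NFAT2-CA and 29.8 ± 2.38 in Control (SD, n = 3 each). With NFAT2-CARIT the order was Dusp2, Dusp4 (32.7 CPM per kb), Dusp10 (26.8), Dusp5 (19.2), Dusp16 (12.6), Dusp6 (9.13), Dusp1 (6.54) and Spry1 (6.09), whose libraries overlapped those of Dusp1, then Spred1 (1.71) and Spry2 (0.247). With NFAT2-CA, Dusp4 was second at 40.9 CPM per kb, ahead of Dusp10 (24.7) and Dusp16 (24.6), whose libraries overlapped, then Dusp5 (15.0), Spry1 (13.9), Dusp6 (8.58), Dusp1 (5.68), Spred1 (1.97) and Spry2 (0.204). In Control the libraries of Dusp2 overlapped those of Dusp10, the next gene, at 25.7 ± 1.68 CPM per kb. Dusp6 and Dusp5 followed in Control at 21.1 and 16.6 CPM per kb. Below them Dusp4 (8.06) and Dusp1 (7.06) overlapped each other. Dusp16 (1.96) overlapped Spry1 (1.67), which in turn overlapped Spred1 (1.50), and Spry2 was last at 0.0857 CPM per kb. Dusp6 was thus at rank 6 with NFAT2-CARIT, rank 7 with NFAT2-CA and rank 3 in Control, and Dusp16 was at rank 5 with NFAT2-CARIT, rank 4 with NFAT2-CA and rank 7 in Control.

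**Figure D4:**
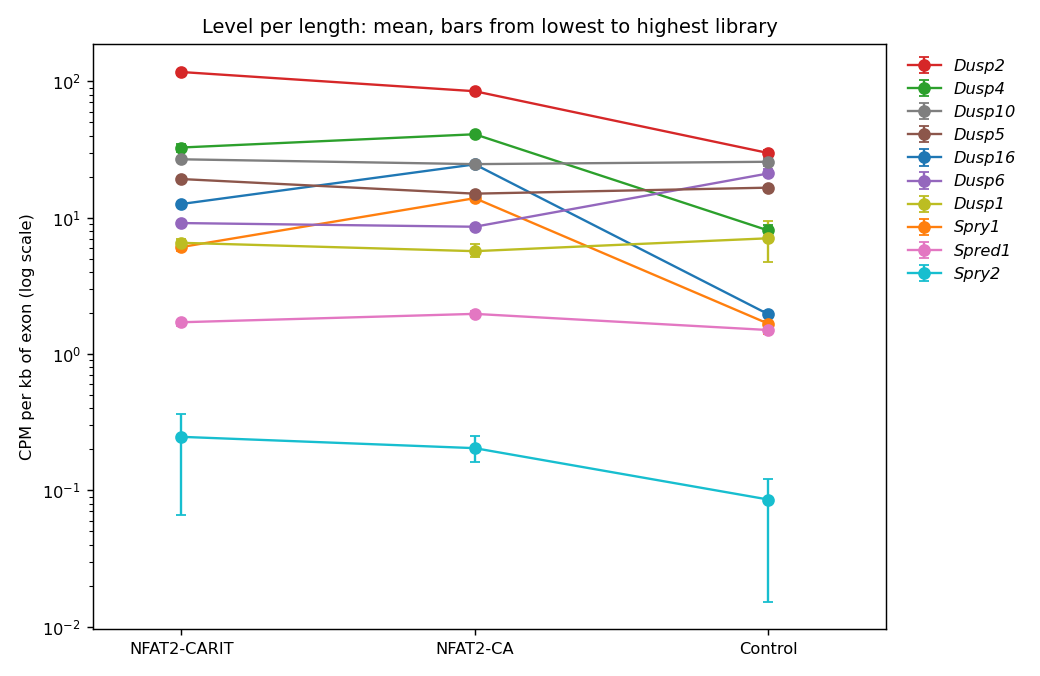
Mean CPM per kb of exon (log axis) of the 10 genes in NFAT2-CARIT, NFAT2-CA and Control, with bars from the lowest to the highest of 3 libraries and lines that join the values of a gene. Dusp2 is first in each group, and Dusp6 and Dusp16 change places between Control and the NFAT2 groups.

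The genes most like Spry1 and Dusp16, the members with the largest differences between the vectors, were taken by Pearson's r of log2(CPM + 1) over the 9 libraries among the 8215 genes that averaged 10 CPM or more. The libraries fall into 3 groups, so r mostly compares group means, and it is given as a description. For Dusp16 they were Plek (r = 0.9992), which encodes the protein kinase C substrate pleckstrin, Nr4a2 (r = 0.9990), which encodes an orphan nuclear receptor, and Farp1 (r = 0.9989). Plek was at 72.5 ± 1.31 CPM with NFAT2-CARIT and 216 ± 8.42 CPM with NFAT2-CA, against 1.97 ± 0.125 CPM in Control. Nr4a2 averaged 77.9 ± 3.23 CPM with NFAT2-CARIT and 219 ± 8.03 CPM with NFAT2-CA, against 4.32 ± 0.0831 CPM in Control. For Spry1 they were Mcoln2 (r = 0.9972), which encodes a mucolipin cation channel, Tox (r = 0.9946), a nuclear factor gene known from exhausted T cells, and Adss (r = 0.9945), a gene of AMP synthesis. Mcoln2 was at 13.1 ± 1.06 CPM with NFAT2-CARIT and 32.0 ± 0.650 CPM with NFAT2-CA, against 2.61 ± 0.485 CPM in Control, and Tox was at 30.5 ± 1.13 CPM with NFAT2-CARIT and 46.0 ± 0.770 CPM with NFAT2-CA, against 14.0 ± 1.63 CPM in Control. Each of them has NFAT2-CARIT between NFAT2-CA and Control, as Dusp16 and Spry1 do. This order follows from the choice by r and is no separate result.

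Relatives of these genes were read from further lists. For each list below the background is that of all tested genes: 65.5% called for NFAT2-CA against Control (29.0% higher, 36.5% lower), 70.3% for NFAT2-CARIT against Control (29.2% higher, 41.1% lower) and 28.6% between the vectors (11.9% higher, 16.7% lower), with median log2 fold changes of -0.06, -0.09 and -0.03. The lists are small, and their counts are given as descriptions. Spred2 and Spred3, the other Spred genes, both rose with each vector, and Spry3 and Spry4 were not among the genes tested. Spred2 was at 70.2 ± 1.43 CPM with NFAT2-CARIT and 74.7 ± 0.877 CPM with NFAT2-CA, against 35.3 ± 2.96 CPM in Control (log2 fold change 0.98 with NFAT2-CARIT, limma adjusted p = 1.0e-09, and 1.06 with NFAT2-CA, adjusted p = 4.0e-10). Spred3 was at 18.7 ± 1.63 CPM with NFAT2-CARIT and 24.0 ± 1.14 CPM with NFAT2-CA, against 11.2 ± 2.20 CPM in Control, a log2 fold change of 0.71 with NFAT2-CARIT (adjusted p = 4.4e-05) and 1.05 with NFAT2-CA (adjusted p = 6.9e-07), of which the authors' deposited table did not call the change with NFAT2-CARIT (FDR 0.078). It was lower under NFAT2-CARIT than under NFAT2-CA (-0.34, adjusted p = 0.036), a call lost without NFAT2-CARIT replicate 1 (adjusted p = 0.13) or 2 (0.10) or NFAT2-CA replicate 1 (0.081) or 2 (0.12), with a range of 0.0061 to 1.0 over all alternatives. Dusp7, which encodes a cytoplasmic ERK phosphatase of the same subfamily as Dusp6, fell too, to 39.8 ± 2.18 CPM with NFAT2-CARIT and 34.3 ± 1.31 CPM with NFAT2-CA, against 60.0 ± 5.85 CPM in Control (log2 fold change -0.57 with NFAT2-CARIT, adjusted p = 4.0e-06, and -0.79 with NFAT2-CA, adjusted p = 1.2e-07). Dusp8 was low throughout but higher with both vectors (log2 fold change 1.02 with NFAT2-CARIT, limma adjusted p = 7.5e-05, and 0.59 with NFAT2-CA, adjusted p = 0.0072), at 1.17 ± 0.250 CPM with NFAT2-CARIT and 0.621 ± 0.238 CPM with NFAT2-CA, against 0.0697 ± 0.0866 CPM in Control. Neither call was made in the authors' deposited table (FDR 0.071 with NFAT2-CARIT and 0.22 with NFAT2-CA). Dusp8 reached 1 CPM only in the 3 NFAT2-CARIT libraries, and so entered the test through the group where it was highest. Its adjusted p-values are therefore no separate support for a rise. Dusp9 was not tested. Of 13 small and other dual specificity phosphatases, 8 were tested, with a median log2 fold change of -0.01 for NFAT2-CA and -0.08 for NFAT2-CARIT against Control and -0.16 between the vectors. NFAT2-CARIT raised 2 (Dusp18 and Dusp22) and lowered 2 (Dusp28 and Dusp19) against Control, NFAT2-CA raised 2 (Dusp18 and Dusp14) and lowered 2 (Dusp28 and Dusp12), and 1 (Dusp14, -0.71, adjusted p = 0.0024) was lower under NFAT2-CARIT than under NFAT2-CA. Of these calls the authors' deposited table made those of Dusp18 and no other (FDR 0.29 for Dusp14 with NFAT2-CA against Control and 1.0 between the vectors). Dusp18 was at 2.30 ± 0.460 CPM with NFAT2-CARIT, 2.60 ± 0.562 CPM with NFAT2-CA and 0, 0.126 and 0 CPM in the Control libraries. It reached 1 CPM in the NFAT2 groups only, so its entry to the test rested on the groups where it was high.

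The kinases that these proteins restrain, and their regulators, were described by lists. Of 18 ERK pathway genes, 7 rose, 8 fell and 3 did not pass with NFAT2-CA, and the counts were the same with NFAT2-CARIT, with a median log2 fold change of -0.01 for NFAT2-CA and -0.12 for NFAT2-CARIT. Against a background of 65.5% and 70.3% of all genes called, 15 of 18 was not tested as a difference and is a description. Nf1, the neurofibromin gene, rose to 20.3 ± 2.99 CPM with NFAT2-CARIT and 20.6 ± 2.54 CPM with NFAT2-CA, against 8.51 ± 0.999 CPM in Control (log2 fold change 1.16 with NFAT2-CARIT and 1.18 with NFAT2-CA, limma adjusted p = 1.8e-07 for each). Rasa1, which encodes another RAS GTPase-activating protein, fell to 65.8 ± 6.22 CPM with NFAT2-CARIT and 60.9 ± 4.78 CPM with NFAT2-CA, against 132 ± 9.68 CPM in Control (-0.99 with NFAT2-CARIT, adjusted p = 1.0e-08, and -1.10 with NFAT2-CA, adjusted p = 3.5e-09). Ptpn7, which encodes a tyrosine phosphatase of ERK and p38, fell to 63.3 ± 2.20 CPM with NFAT2-CARIT and 78.0 ± 3.88 CPM with NFAT2-CA, against 146 ± 0.792 CPM in Control (-1.20 with NFAT2-CARIT, adjusted p = 1.8e-11, and -0.90 with NFAT2-CA, adjusted p = 7.6e-10). Between the vectors, 5 of the 18 were higher with NFAT2-CARIT, and 3 were lower, led by Ptpn7 (-0.30, adjusted p = 0.0011, and FDR 0.50 in the authors' deposited table), with a median of 0.06.

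Of 8 JNK pathway genes, 3 rose, 3 fell and 2 did not pass with NFAT2-CA, and 2 rose, 3 fell and 3 did not pass with NFAT2-CARIT. Between the vectors 1 was higher and 2 were lower with NFAT2-CARIT. The median log2 fold change was 0.07 for NFAT2-CA and -0.09 for NFAT2-CARIT against Control, and -0.03 between the vectors, beside -0.06, -0.09 and -0.03 over all genes. The shares called are close to the 65.5% and 70.3% of all genes. Map3k4, a kinase gene at the top of the route, fell to 45.5 ± 1.36 CPM with NFAT2-CARIT and 49.4 ± 3.35 CPM with NFAT2-CA, against 71.1 ± 7.65 CPM in Control (log2 fold change -0.63 with NFAT2-CARIT, limma adjusted p = 2.1e-06, and -0.51 with NFAT2-CA, adjusted p = 2.2e-05). Map2k4, which encodes a kinase of JNK, fell likewise (-0.38 with NFAT2-CARIT, adjusted p = 4.2e-05, and -0.51 with NFAT2-CA, adjusted p = 2.0e-06), and the authors' deposited table did not call its change with NFAT2-CARIT (FDR 0.16). The changes in this list were below 2-fold, unlike that of Dusp16. Of 8 tested p38 pathway genes (Mapk13 was not tested), 3 rose, 4 fell and 1 did not pass with NFAT2-CA, 3 rose, 2 fell and 3 did not pass with NFAT2-CARIT, and 4 were higher and 2 lower under NFAT2-CARIT than under NFAT2-CA, with medians of -0.08, 0.07 and 0.29. Map2k6, a kinase of p38, fell to 18.5 ± 0.703 CPM with NFAT2-CARIT and 26.3 ± 1.33 CPM with NFAT2-CA, against 40.7 ± 1.17 CPM in Control (-1.09 with NFAT2-CARIT, adjusted p = 6.3e-10, and -0.61 with NFAT2-CA, adjusted p = 9.6e-07). Mapk14, the main p38 gene of T cells, was at 191 ± 2.84 CPM with NFAT2-CARIT against 137 ± 3.20 CPM with NFAT2-CA (0.48, adjusted p = 8.2e-06), and Mapkapk2, which encodes a kinase that p38 activates, was at 323 ± 13.3 CPM with NFAT2-CARIT against 246 ± 11.4 CPM with NFAT2-CA (0.39, adjusted p = 8.0e-04).

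Transcripts that respond to ERK were read as a further list. Of 9 tested of 12, 2 rose, 3 fell and 4 did not pass with NFAT2-CA, 4 rose, 3 fell and 2 did not pass with NFAT2-CARIT, and 2 were higher and 2 lower under NFAT2-CARIT than under NFAT2-CA, with medians of -0.18, -0.25 and -0.07 beside -0.06, -0.09 and -0.03 over all genes. With 65.5% and 70.3% of all genes called against Control, these counts show nothing particular to the list. Myc, a growth regulator gene, fell to 30.8 ± 0.543 CPM with NFAT2-CARIT and 36.5 ± 1.54 CPM with NFAT2-CA, against 107 ± 3.54 CPM in Control (log2 fold change -1.76 with NFAT2-CARIT, limma adjusted p = 2.7e-13, and -1.52 with NFAT2-CA, adjusted p = 1.8e-12). Etv5, an ETS factor gene, rose to 2.29 ± 0.722 CPM with NFAT2-CARIT and 2.08 ± 0.0881 CPM with NFAT2-CA, against 0.425 ± 0.157 CPM in Control (1.19 with NFAT2-CARIT, adjusted p = 1.6e-05, and 1.12 with NFAT2-CA, adjusted p = 3.5e-05), while the authors' deposited table called neither change (FDR 0.061 with NFAT2-CARIT and 0.094 with NFAT2-CA). No Control library of Etv5 reached 1 CPM, so it entered the test through the groups where it was high. Egr3, counted among the falls with each vector, reached 1 CPM in Control only and entered the test through that group. The authors' deposited table did not call its falls (FDR 0.31 with NFAT2-CARIT and 0.78 with NFAT2-CA). Ier3, an immediate-early gene, rose with NFAT2-CA (29.5 ± 1.57 CPM against 12.2 ± 0.992 CPM in Control, 1.21, adjusted p = 6.7e-09) and was lower under NFAT2-CARIT than under NFAT2-CA (17.6 ± 1.78 CPM with NFAT2-CARIT, -0.72, adjusted p = 2.3e-05), a difference with an FDR of 0.25 in the authors' deposited table. Phlda1 was higher with NFAT2-CARIT, at 10.9 ± 1.58 CPM against 5.60 ± 1.12 CPM with NFAT2-CA (0.85, adjusted p = 0.0016), and the authors' deposited table did not call it (FDR 0.70).

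Stress and handling can switch on several of these genes, so 10 immediate-early and heat-shock transcripts were read beside them. With each vector 5 rose, 2 fell and 3 did not pass against Control, and between the vectors 1 was higher and 2 were lower with NFAT2-CARIT. The median log2 fold change was 0.31 for NFAT2-CA and 0.64 for NFAT2-CARIT against Control, and -0.18 between the vectors, beside -0.06, -0.09 and -0.03 over all genes. The sum of the list was 802 to 828 CPM with NFAT2-CARIT and 861 to 917 CPM with NFAT2-CA, against 585 to 887 CPM in Control. The rises were led by the inducible HSP70 chaperone genes, with Hspa1a at 99.1 ± 8.24 CPM with NFAT2-CARIT and 108 ± 10.2 CPM with NFAT2-CA, against 0.510 ± 0.404 CPM in Control, and Hspa1b at 86.3 ± 6.73 CPM with NFAT2-CARIT and 114 ± 5.91 CPM with NFAT2-CA, against 1.00 ± 0.568 CPM in Control. Atf3, a stress-inducible factor gene, was at 34.5 ± 0.929 CPM with NFAT2-CARIT and 57.1 ± 5.85 CPM with NFAT2-CA, against 5.47 ± 0.808 CPM in Control. Fosb rose with both vectors as well, to 2.31 ± 0.705 CPM with NFAT2-CARIT and 5.10 ± 1.00 CPM with NFAT2-CA, against 0.179 ± 0.0676 CPM in Control. No Control library of Hspa1a or Fosb reached 1 CPM, so both entered the test through the groups where they were high. Their calls against Control are therefore no separate support for a rise. In limma Fos rose with NFAT2-CARIT only and Junb with NFAT2-CA only, and the authors' deposited table called neither (FDR 0.17 and 0.087). Zfp36 and Ier2 were the genes that fell, while Jun and Egr1 did not pass. Hspa1a, Hspa1b, Atf3 and Fosb are thus high in the same groups as Dusp16, Spry1, Dusp4 and Dusp2, and their part in those results was not tested.

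**Figure D5:**
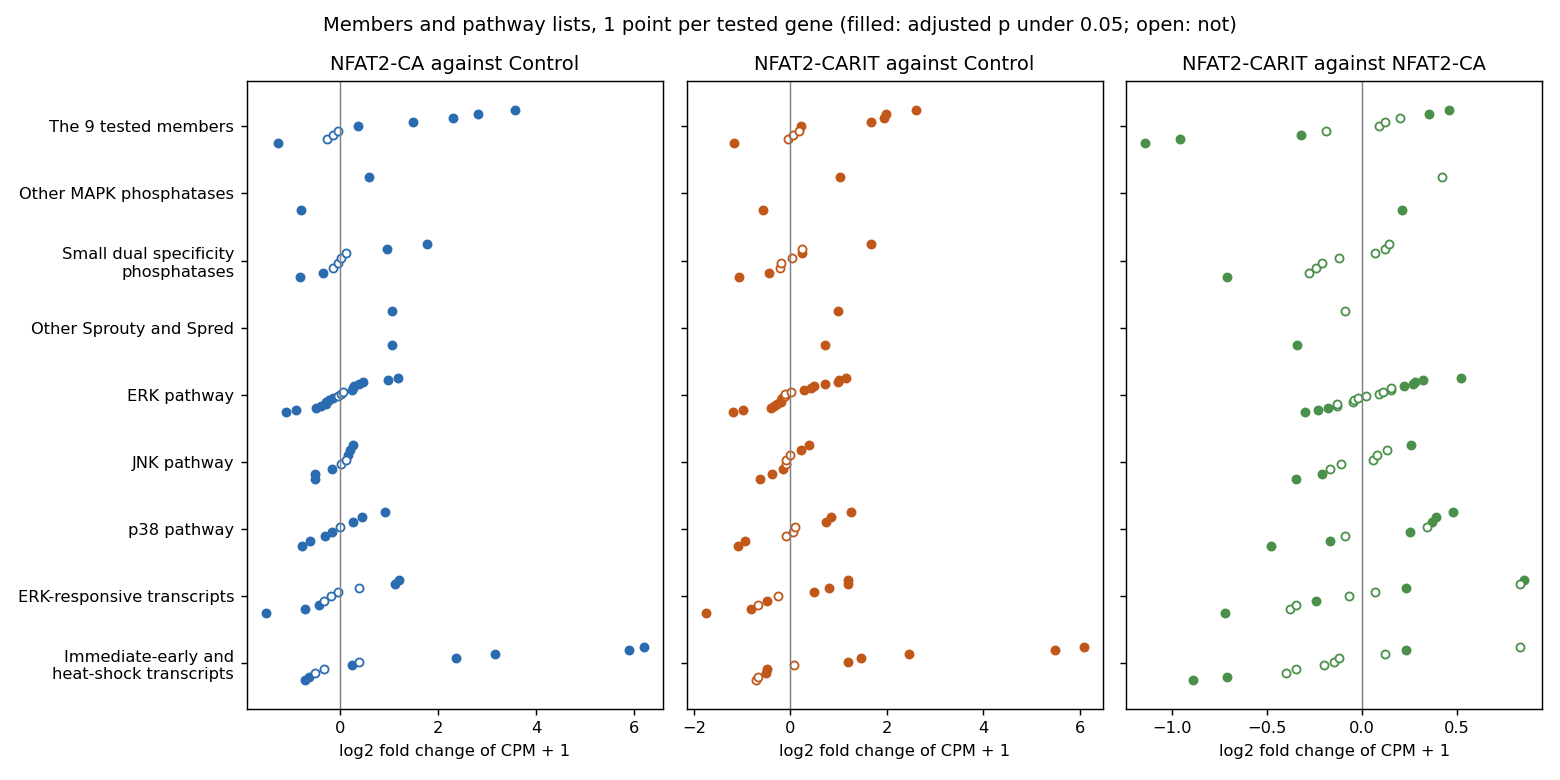
Log2 fold change of CPM + 1 (x axis) of each tested gene, 1 point per gene, for the 9 tested members and 8 lists, in 3 panels (NFAT2-CA against Control, NFAT2-CARIT against Control, vectors against each other), filled where the adjusted p is under 0.05 and open otherwise. Points of the ERK, JNK and p38 lists lie on both sides of 0, and the 2 tested Spred genes outside the set lie above 0 in both panels against Control.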

How the data were processed

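The deposited CPM values of the authors were used for 9 libraries. Each column sums to 1000000 after the 0.0001 that the authors added to every value is taken off, as checked on the file. The authors' deposited table holds p-values, step-up FDRs and log2 ratios of group means, per the file headers, and per the submitters' processing notes DESeq2, Partek 10 and build mm10 were used. Aligner, annotation and strand setting: not given in the sources used here.

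Low values lie mostly on multiples of 1 read. With the depths so estimated, between 81.3% and 84.4% of the values at or below 1 CPM came within 0.1 read of a whole number, under the 95% set for rebuilding reads, so CPM were tested. Replicates differed by more than sampling noise (median chi-square 2.75 to 6.21 times its sampling value), so none was counted as a copy. limma 3.58.1 (R 4.3.3) was run on log2(CPM + 1) with group means over all 9 libraries, trend and robust settings, two-sided, for genes with at least 1 CPM in at least 3 libraries, and Benjamini-Hochberg adjustment over 13090 genes. As a check of the code alone, the fit was run on simulated data. These had a fixed spread for all genes and far fewer changed genes than were called here. Intervals are at 95%. Exon lengths and spans are from GENCODE M21 (GRCm38), whose spans equal those in the file for all 10 members.

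The members, lists and tests were chosen with earlier results of these data known. Named were the members, Nfatc1, up to 3 called genes with the largest change per list and comparison, and the 3 genes most like each of 2 members. Jun, Egr1 and Zfp36 by library and the small phosphatases past the 3 were chosen after their values were seen. So were Junb, Fosb against Control, Egr3, Cd4, Cd3e, Cd5, Cd8a, Cd8b1, Itgam, Cd14 and Itgax. Most list genes are counted without being named. Python 3.11.15, pandas 2.3.3 and matplotlib 3.10.9 were used for tables and figures. As alternatives, TMM-type factors, a 10 CPM filter and none, pseudocounts of 0.5 and 5, quantile normalization, only the 6 libraries compared, a replicate block, each library left out and the authors' deposited table were tried. Replicate numbers did not in general pair the libraries.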

Additional observations from a re-analysis of the deposited data

How the results depend on the processing

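Of 486 values of the 9 tested members under the alternatives, 471 kept their direction and their side of the threshold, among them all those of Dusp16, Spry1, Dusp2 and Dusp6. The other 15 were 4 lost calls, 4 turned signs and 7 gained calls. Calls were gained for Dusp1 without Control replicate 2 (adjusted p = 0.0018 with NFAT2-CA and 0.033 with NFAT2-CARIT), for Dusp5 with NFAT2-CA without NFAT2-CA replicate 3 (0.048) or Control replicate 2 (0.047), and with NFAT2-CARIT for Dusp10 (0.024) and Spred1 (0.014) with TMM-type factors and Spred1 with quantile normalization (0.0044). The authors' deposited table, whose test differs, called 3602 genes for NFAT2-CA against Control, 4216 for NFAT2-CARIT against Control and 468 between the vectors, where limma called 8574, 9200 and 3745, and it called 3 members between the vectors instead of 5. It did not call Dusp4 (FDR 0.72) or Dusp5 (0.82) between the vectors, Dusp5 with NFAT2-CARIT against Control (0.55) or Spred1 with NFAT2-CA against Control (0.57). The sign of Dusp1 with NFAT2-CARIT against Control turned with TMM-type factors (0.04) and quantile normalization (0.05), and over the runs without 1 library it ranged from -0.31 to 0.17. Dusp10 with NFAT2-CA against Control turned to 0.02 with TMM-type factors. The cause was not tested. TMM-type factors moved the median log2 fold change of all genes from -0.06 to 0.01 for NFAT2-CA and from -0.09 to 0.00 for NFAT2-CARIT against Control. Replicate numbers did not in general pair the libraries (r of deviations -0.07 to 0.26 over 9 pairs, 1 of them over 0.1). That pair was NFAT2-CARIT replicate 3 with NFAT2-CA replicate 3. In 2 of the 9 pairs the closest library of the other group had the same number. With the replicate block limma called 8559 genes and 6 members for NFAT2-CA against Control, 9174 genes and 6 members for NFAT2-CARIT against Control, and 3544 genes and 5 members between the vectors. Of 1147 values of other named genes, 57 lost the call and none turned. With 3 libraries a group, small differences such as those of Spred1 and Dusp10 are near the limit of the test, and Spry2 rests on few reads.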
